A study of Mus musculus with 15 samples.

Results

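The genes described here are 9 factors of the pluripotency network of mouse embryonic stem cells (ESCs), namely Pou5f1, Sox2, Nanog, Sall4, Utf1, Lin28a, Zfp281, Tcf3 and Fgf4. They were picked by name from a table of 26061 genes, and all 9 were found there and passed the filter on low values that left 19490 genes for testing. RNA was measured by sequencing of rRNA-depleted total RNA in E14 cells, an ESC line of 129/Ola background grown without feeders on gelatin in serum and LIF. Each of 3 groups held 5 libraries. The shScr cells carried a non-targeting short hairpin RNA (shRNA), the shTet1 cells a hairpin against Tet1 and the shTet2 cells a hairpin against Tet2, and all 3 groups had been infected with pLKO.1 lentivirus and kept for 3 days in puromycin. With 1 hairpin per target, what a hairpin does on its own cannot be told apart from what loss of the TET enzyme does. The labels number the libraries 1 to 5 in each group without saying whether they came from separate cultures, so that p-values measure the spread between these libraries, which may be technical in part.

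In ESCs, OCT4 (the protein of Pou5f1) and SOX2 bind DNA side by side on a composite element and, with NANOG, keep each other and a wide set of other genes active. SALL4 and ZFP281 are zinc finger proteins that bind many of the same sites, UTF1 is a chromatin protein of undifferentiated cells, LIN28A is an RNA-binding protein that blocks maturation of the let-7 microRNAs, and FGF4 is a secreted growth factor that acts back on the cells through FGF receptors and pushes them towards differentiation. TET1 and TET2 oxidise methylated cytosine in DNA. The study looked at enhancers bound by NANOG, OCT4 and SOX2 in cells depleted of either enzyme, and the comparisons here give the RNA of those regulators and of their partners in the same libraries.

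The composite element joins a SOX motif, CATTGT, to an octamer motif, ATGCAAAT, with 1 base of any kind between them. It was searched on both strands within 5000 bases of each annotated gene start in the mm9 genome, with up to 2 mismatches over its 14 fixed bases, because OCT4 and SOX2 bind it jointly. Matches were found for 3 members and are shown with their surroundings (30 bases each, 5′ to 3′ on the strand of the match, the match in capitals).
Nanog: accatggaCATTGTAATGCAAAAgaagctg
Sox2: gggcagcCATTGTGATGCATATaggattat
Utf1, nearer match: tgagccgtCATTGTTATGCTAGTgaagtgc
Utf1, farther match: tttgtttCACTGTGATGGAAATaagaaaca
The Nanog match (chr6:122657431-122657445, minus strand, mm9) lay 69 bases before the gene start, or −69, and differed from the pattern at 1 base. The Sox2 match (chr3:34552971-34552985, plus strand) also had 1 mismatch and was placed beyond the 3′ end of the gene, at +4051 from the start. Both Utf1 matches (chr7:147131580-147131594, minus strand, at +1899, and chr7:147133483-147133497, plus strand, at +3802) had 2 mismatches and were likewise downstream of the gene. None of the 4 overlapped an exon of the member. The windows of Pou5f1, Sall4, Lin28a, Zfp281, Tcf3 and Fgf4 held no match, which says only that these letters are not in these windows. The Fgf4 enhancer is known to carry both motifs at a wider spacing that the pattern does not cover. Of 22380 protein-coding windows of this length, 11.18% held a match with up to 2 mismatches and 0.599% one with at most 1. A match is a description of the sequence and was not tested as a binding site.

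On the mm9 annotation, Pou5f1 is at chr17:35642982-35647721, Sox2 at chr3:34548927-34551383, Nanog at chr6:122657507-122664651, Sall4 at chr2:168573832-168593443 and Utf1 at chr7:147129688-147131011. Lin28a is at chr4:133559245-133574756, Zfp281 at chr1:138521478-138526630 and Fgf4 at chr7:152047291-152051148. The row named Tcf3 is at chr10:79872259-79896392 and is the gene of the E protein E2A, a helix-loop-helix factor. The TCF/LEF factor of Wnt signalling that older work on ESCs also calls TCF3 is Tcf7l1 (chr6:72576372-72739248), which has a row of its own. The name Tcf3 therefore does not stand for the Wnt effector in these data, and Tcf7l1 is given beside it throughout. Some members share sequence or position with other features, and the sources used here do not say whether reads were counted by strand. Of all 50-base stretches of the longest transcript, 26.9% occurred elsewhere in the genome for Pou5f1 (at 2 other places), 19.2% for Nanog (a repeat with 2598 other places), 10.8% for Lin28a (1 other place) and 0.06% for Sall4. Reads from such stretches are uncertain, since the aligner kept only 1 position for each read. Antisense transcripts overlapped 9.50% of the exon bases of Sall4 (Gm14261) and 2.94% of those of Lin28a (Gm13061), and the single exon of Sox2 lies within the Sox2ot locus without sharing exon bases with it.

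Reads in genes ranged from 15258291 to 35432425 per library. Both targets were lowered: Tet1 in shTet1 differed from shScr by −1.84 (SE 0.19, limma with adjustment after Benjamini and Hochberg, hereafter BH-adjusted p = 0.000228) and Tet2 in shTet2 by −1.90 (SE 0.13, limma, BH-adjusted p = 3.67e-07), which left 27.8% and 26.6% of the normalised reads of shScr. Values in this text are the variance-stabilised values of the authors, on a scale close to log2 for well-covered genes. Further markers of ESC identity were high in each group: Zfp42 averaged 14.50, 14.52 and 14.27 in shScr, shTet1 and shTet2, Esrrb 12.71, 12.88 and 12.60, Tdgf1 14.61, 14.98 and 14.58, and Dppa5a 13.50, 13.91 and 13.45. Receptor genes of the olfactory and vomeronasal families (1448 genes), which belong to sensory neurons, took 54.5 to 64.7 of every 1000000 gene reads in 4 libraries (shScr replicate 4, shTet1 replicates 3 and 4, shTet2 replicate 4) and 11.1 to 26.5 in the other 11. Replicates 1 and 2 differed from replicates 3 to 5 in each group for several members. The labels give no batch, and differences are therefore also given within replicates 1 and 2 and within replicates 3 to 5, as values with no test.

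Per length, Pou5f1 was the most and Utf1 the least abundant member in control cells. Normalised reads per kilobase (kb) of exon in shScr averaged 8582 ± 2161 for Pou5f1, 5373 ± 984 for Sox2 and 3710 ± 1101 for Nanog (SD, n = 5 each), so that the members of the central trio were the most abundant. Lin28a followed with 2051 ± 530, Zfp281 with 1444 ± 155, Fgf4 with 1256 ± 78.5 and Sall4 with 945 ± 242 reads per kb (SD, n = 5 each). The E protein gene Tcf3 had 352 ± 68.2 and Utf1 222 ± 122 reads per kb (SD, n = 5 each). Tcf7l1, which is not a member, had 20.5 ± 8.89 reads per kb, below all members. Neighbours in this order overlapped in their libraries, except that all Sall4 values lay above all Tcf3 values and all Utf1 values above all Tcf7l1 values. The order in shTet1 differed in 1 place, with Fgf4 (1648 ± 313 reads per kb) before Lin28a (1287 ± 227) and Zfp281 (1215 ± 187), and in shTet2 it was that of shScr. With the length of the longest transcript in place of all exon bases, Pou5f1 came to 14374 and Tcf3 to 481 reads per kb in shScr, and the order of the members stayed as it was.

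**Figure D1:**
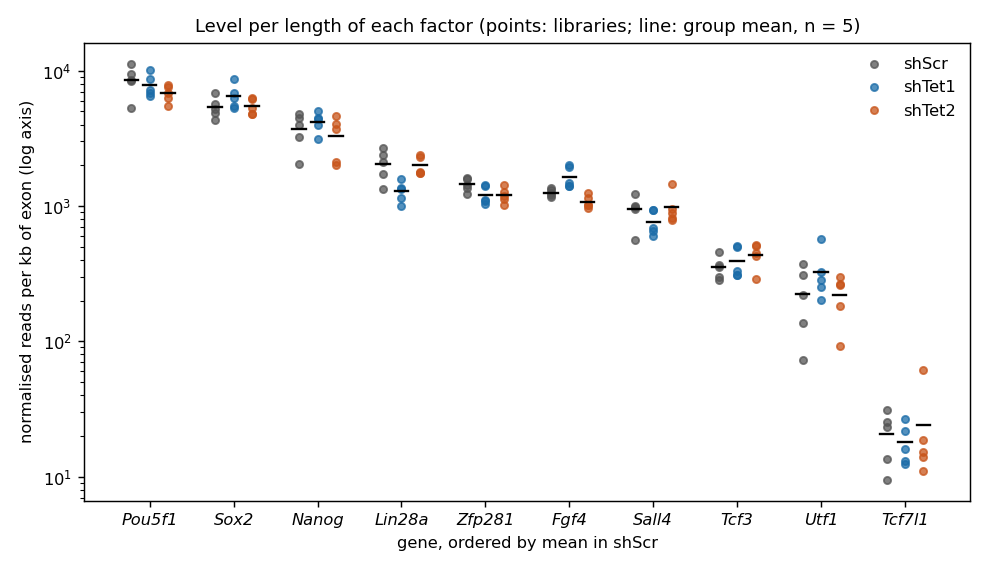
Normalised reads per kb of exon (log axis) of the 9 members and of Tcf7l1 in every library, with points coloured by group and a line for the mean of each group (n = 5). Pou5f1, Sox2 and Nanog are the highest and Utf1 the lowest of the members in each group, and Tcf7l1 is lower still, at 20.5 reads per kb on average in shScr.

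The members differed in how closely their replicates agreed. Utf1 had the widest spread, with an SD within groups of 0.65, which was above that of 96.7% of 2053 genes of like level. Nanog was next, with an SD of 0.45 (above 91.8% of 521 genes of like level). At the other end, the SD was 0.18 for Fgf4 and 0.19 for Zfp281, both above only 21.0% of genes of like level. Sall4, Tcf3, Pou5f1, Lin28a and Sox2 lay between, with SDs of 0.36, 0.32, 0.30, 0.30 and 0.25. A difference of a given size is therefore harder to tell from the spread for Utf1 and Nanog than for Fgf4 and Zfp281.

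Part of that spread followed the replicate numbers. Nanog was lower in replicates 1 and 2 than in replicates 3 to 5 in all 3 groups, by −0.77 in shScr, −0.25 in shTet1 and −0.98 in shTet2. Utf1 went the other way in all 3 groups, with 0.82, 0.76 and 0.65 in the same order. Sox2 (0.38, 0.44 and 0.33) and Tcf3 (0.34, 0.64 and 0.42) were also higher in replicates 1 and 2 in each group. For Fgf4 the split was 0.48 in shTet1 but only 0.04 in shScr and 0.01 in shTet2. Pou5f1, Sall4, Lin28a and Zfp281 had no sign common to the groups. The 4 libraries with the highest receptor share lay below their group means for Sox2, Utf1, Tcf3 and Fgf4 in 4 of 4 cases. For Pou5f1, Sall4, Lin28a and Zfp281 this was so in 3 of 4, whereas for Nanog 3 of 4 lay above. Mean deviations were −0.72 for Utf1, −0.35 for Tcf3, −0.26 for Pou5f1, −0.20 for Lin28a, −0.17 for Fgf4 and 0.17 for Nanog. Those of Sall4, Sox2 and Zfp281 were −0.13, −0.12 and −0.09. All 4 libraries are among replicates 3 to 5, so that these deviations also hold the replicate split. The part of the receptor share in any result here was not tested, but the differences without the 4 libraries are given below.

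**Figure D2:**
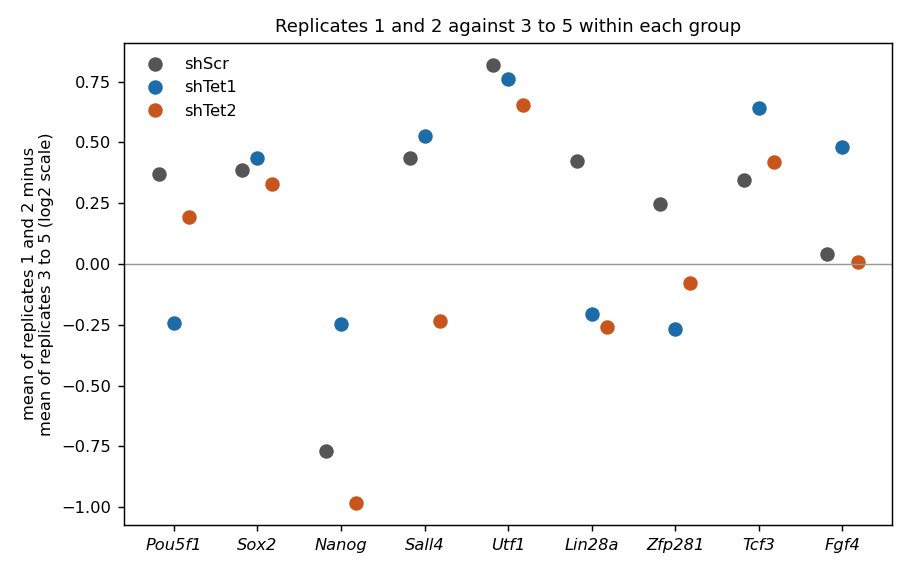
Mean of replicates 1 and 2 minus mean of replicates 3 to 5 (log2 scale) for each member, with 1 point per group. All 3 groups lie below 0 for Nanog and above 0 for Sox2, Utf1, Tcf3 and, by little in shScr and shTet2, Fgf4, while the other members have points on both sides.

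In the comparisons between groups, the clearest difference among the members was in Fgf4, which was highest in shTet1 and lowest in shTet2. Lin28a had its lowest values in shTet1 and just missed the threshold between shTet2 and shTet1. For the central trio, Pou5f1, Sox2 and Nanog, no difference between groups passed the threshold. In limma with Benjamini-Hochberg adjustment over 19490 genes (two-sided, 1 fit over all 15 libraries, threshold 0.05), 0 of 9 members were called between shTet1 and shScr, where 0.0718% of all tested genes were called. At an unadjusted p under 0.05, 2 of 9 members passed (Lin28a and Fgf4), against 11.8% of all genes. Between shTet2 and shScr, 0 of 9 members were called (0.39% of all genes), and 0 of 9 at an unadjusted p under 0.05 (11.6% of all genes). With reads recovered from the deposited values and limma voom, the members called were again 0 in both comparisons. Between shTet2 and shTet1, 1 of 9 was called, Fgf4 (4.24% of all genes), and 2 at an unadjusted p under 0.05, Fgf4 and Lin28a (15.7% of all genes). The groups of 5 did not overlap for 1 member between shTet1 and shScr (2.62% of all genes), for 0 between shTet2 and shScr (2.7% of all genes) and for 2 between shTet2 and shTet1 (6.04% of all genes). The median difference of the 9 members was 0.13, −0.01 and −0.20 in these comparisons, beside 0.01, 0.04 and 0.01 over all tested genes. The comparisons share their groups and are not independent of each other. The shares of all genes given here also belong beside the counts from the lists below. Fewer cells expressing a gene and less RNA per cell cannot be told apart in these bulk samples.

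Same-numbered libraries deviated together in both comparisons with shTet1, where the replicate number was treated as a pairing. With the replicate number as a block, 1 of 9 members was called between shTet1 and shScr (Lin28a, with 4.8% of all genes called). Between shTet2 and shTet1 it was 2 (Fgf4 and Lin28a, with 11.2% of all genes called). These shares also belong beside the list genes named below as called with the block.

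**Figure D3:**
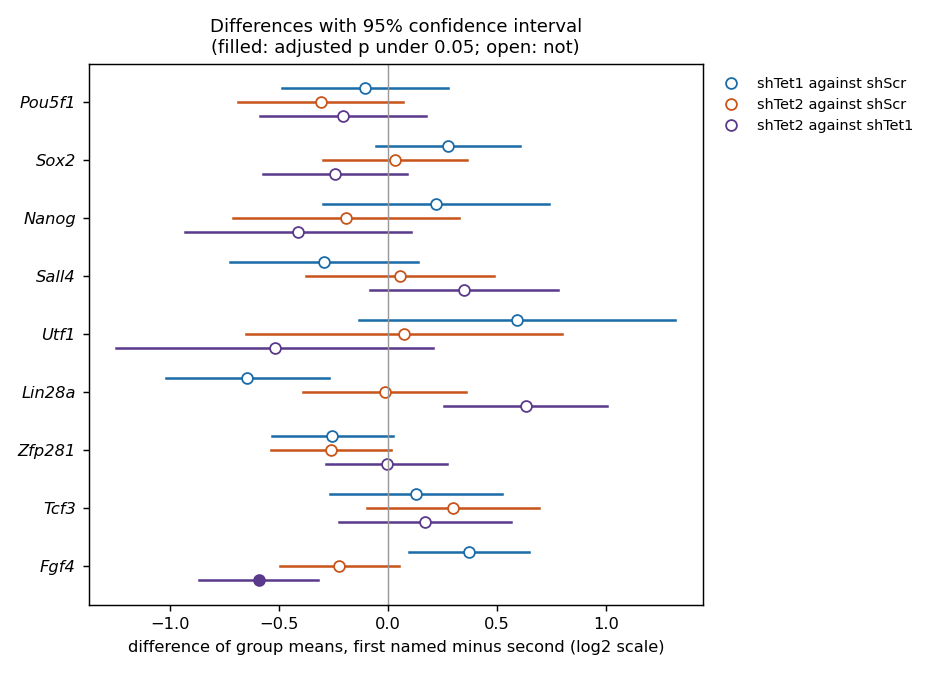
Difference of group means (log2 scale) with its 95% CI from limma for each member and comparison, filled where the Benjamini-Hochberg adjusted p was under 0.05. Only the point of Fgf4 between shTet2 and shTet1, at −0.59, is filled, and the intervals of Lin28a in both comparisons with shTet1 and of Fgf4 between shTet1 and shScr also lie clear of 0.

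Fgf4 codes for the growth factor of the set. The shScr libraries had 11.97, 11.90, 12.02, 11.80 and 11.85 (replicates 1 to 5, as throughout). Those of shTet1 had 12.54, 12.59, 12.06, 12.06 and 12.13, and those of shTet2 11.60, 11.78, 11.61, 11.54 and 11.89. All 5 shTet1 libraries lay above all shScr and all shTet2 libraries, whereas shScr and shTet2 overlapped in shTet2 replicate 5. From shTet1 to shTet2 Fgf4 dropped, with a difference of −0.59 (95% CI −0.87 to −0.32, SE 0.13) and a limma BH-adjusted p of 0.0126, an exact permutation test gave 0.00794, the smallest p that 5 against 5 libraries allow, and shTet2 held 65.4% of the normalised reads of shTet1. It was lower in 5 of 5 same-numbered pairs. Within replicates 1 and 2 it was −0.88, and within replicates 3 to 5 −0.40, so that the size of the difference but not its direction moved with the replicate split. Without the 4 libraries of high receptor share the difference was −0.70 (limma, BH-adjusted p = 0.0283). Against shScr, Fgf4 in shTet1 was higher by 0.37 (SE 0.13, 95% CI 0.10 to 0.65), with 131% of the normalised reads, an exact permutation p of 0.00794 and a limma BH-adjusted p of 0.244. That difference was 0.64 within replicates 1 and 2 and 0.19 within replicates 3 to 5. In shTet2 the value was −0.22 relative to shScr (SE 0.13, 95% CI −0.50 to 0.05), with an exact permutation p of 0.0317 and a limma BH-adjusted p of 0.556, and −0.24 and −0.21 within the replicate sets. Neither knockdown was thus told from the control over all genes, and the called difference was that between the knockdowns.

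The receptors and the response genes of FGF signalling were measured as a list of 18 genes. Between the knockdowns, 2 of the 18 passed the test (4.24% of all genes), both lower in shTet2 than in shTet1, with a median over the list of 0.05. Fgfr1, the main FGF receptor of epiblast cells, went from 9.95 ± 0.24 in shTet1 to 8.83 ± 0.48 in shTet2 (SD, n = 5 each), that is by −1.13 (limma, SE 0.20, BH-adjusted p = 0.00304). Ptpn11, which codes for the phosphatase SHP2 that carries the signal from the receptor to RAS, fell by 0.63 on the log2 scale (SE 0.16, limma, BH-adjusted p = 0.0312). The members called are a receptor and a signal carrier. Of the other receptors, Fgfr2, Fgfr3 and Fgfr4 had values of 0.03, −0.16 and 0.18 in the same comparison and did not pass, nor did Grb2, an adaptor of the pathway, with 0.16. Over the whole list, 10 of 18 values were above 0 and 8 below. Against shScr, 0 of 18 passed in shTet1 (median 0.09) and 0 of 18 in shTet2 (median 0.09). With the replicate block, Spry1 was called between shTet1 and shScr, at 0.64 (adjusted p = 0.0151), and Dusp4 and Fos, at 0.81 and 0.49, joined Fgfr1 and Ptpn11 between shTet2 and shTet1 (adjusted p = 0.00266 and 0.0195). Genes that this text names as called with the block were picked after their values were seen.

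Lin28a codes for the let-7 inhibitor. The shScr libraries had 12.86, 13.20, 12.56, 12.22 and 13.05, the shTet1 libraries 11.79, 12.23, 12.21, 11.98 and 12.46, and the shTet2 libraries 12.60, 12.61, 13.02, 12.59 and 12.99. All shTet1 libraries lay below all shTet2 libraries and below the shScr libraries other than replicate 4. In shTet1 the difference from shScr was −0.64 (SE 0.18, 95% CI −1.02 to −0.27), with 62.8% of the normalised reads, an exact permutation p of 0.0238 and a limma BH-adjusted p of 0.133. It was lower in 5 of 5 same-numbered pairs, and the replicate block gave an adjusted p of 0.0159. Within replicates 1 and 2 the difference was −1.02 and within replicates 3 to 5 it was −0.39. In shTet2 the value was −0.01 relative to shScr (SE 0.18, 95% CI −0.39 to 0.36, limma, BH-adjusted p = 0.988), with −0.42 within replicates 1 and 2 and 0.26 within replicates 3 to 5. The knockdowns differed by 0.63, shTet2 above shTet1 (SE 0.18, 95% CI 0.26 to 1.00), with 155% of the normalised reads of shTet1 and an exact permutation p of 0.00794. The limma BH-adjusted p was 0.0516, just outside the threshold, and 0.00598 with the replicate block. It was 0.60 within replicates 1 and 2 and 0.65 within replicates 3 to 5, nearly the same in both. Without the 4 libraries of high receptor share it was 0.65 (limma, BH-adjusted p = 0.135).

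Partners and targets of LIN28 made up a list of 12 genes. Lin28b, the paralog of Lin28a, had values of −0.16 in shTet1 and −0.43 in shTet2 relative to shScr (limma, BH-adjusted p = 0.838 and 0.431). Trim71, an RNA-binding protein and let-7 target, had −0.09 and −0.32, and the uridylating enzymes Zcchc11 and Zcchc6 that LIN28A recruits to let-7 precursors 0.36 and 0.08 in shTet1 and 0.14 and −0.15 in shTet2, none past the threshold. The knockdowns differed in 1 of the 12, beside 4.24% of all genes. This was Ccnd1, which codes for cyclin D1 and is among the let-7 targets. It fell by 1.26 on the log2 scale (SE 0.29, limma, BH-adjusted p = 0.0169), from 11.64 ± 0.40 in shTet1 to 10.37 ± 0.48 in shTet2 (SD, n = 5 each). In that comparison 11 of 12 values were below 0, with a median of −0.23. Against shScr, 0 of 12 passed in either knockdown (medians 0.12 and −0.07), and with the block Igf2bp2 was called in shTet1 at 0.50 (adjusted p = 0.0433). Ccnd1 in shTet2 was −0.95 relative to shScr (limma, BH-adjusted p = 0.175), and the block called it there (adjusted p = 0.00356).

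Pou5f1, Sox2 and Nanog form the central trio. For Pou5f1, the shScr libraries had 14.21, 14.64, 14.23, 13.56 and 14.38, those of shTet1 13.91, 14.00, 14.26, 13.84 and 14.49, and those of shTet2 14.11, 13.91, 13.79, 13.59 and 14.06. The lowest and the highest of the 15 were both shScr libraries, and the groups overlapped. Relative to shScr, Pou5f1 was −0.10 in shTet1 (95% CI −0.48 to 0.28, limma, BH-adjusted p = 0.892) and −0.31 in shTet2 (−0.69 to 0.07, adjusted p = 0.553), or 91.7% and 79.1% of the normalised reads. The shTet2 value was −0.41 within replicates 1 and 2 and −0.24 within replicates 3 to 5, while the shTet1 value was −0.47 and 0.14 in those sets. Relative to shTet1, shTet2 stood at −0.20 (−0.59 to 0.18, adjusted p = 0.688), or 0.06 and −0.38 within the sets.

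Sox2 codes for the DNA-binding partner of OCT4. Its shScr libraries had 13.76, 14.05, 13.65, 13.54 and 13.37, its shTet1 libraries 14.04, 14.39, 13.93, 13.67 and 13.73, and its shTet2 libraries 13.89, 13.92, 13.53, 13.68 and 13.52. It was higher in shTet1 than in shScr in 5 of 5 same-numbered pairs, but the groups overlapped and the difference of 0.28 (95% CI −0.05 to 0.61) did not pass (exact permutation p = 0.167, limma, BH-adjusted p = 0.534). With the replicate block its interval was 0.08 to 0.47, and the adjusted p over all genes 0.0908. Within replicates 1 and 2 it was 0.31, and within replicates 3 to 5 0.25. In shTet2 Sox2 was 0.03 relative to shScr (−0.30 to 0.36), with 102% of the normalised reads and 0.00 and 0.06 within the replicate sets, and it was −0.24 relative to shTet1 (−0.57 to 0.09), with −0.31 and −0.20 in the sets.

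Nanog codes for a homeodomain factor. The libraries of shScr had 12.83, 12.18, 13.12, 13.40 and 13.30, those of shTet1 13.30, 12.77, 13.12, 13.27 and 13.47, and those of shTet2 12.22, 12.15, 13.15, 13.02 and 13.34. The lowest values of all 15 were those of replicates 1 and 2 of shTet2 and of replicate 2 of shScr. Relative to shScr it was 0.22 in shTet1 (95% CI −0.30 to 0.74, limma, BH-adjusted p = 0.801) and −0.19 in shTet2 (−0.71 to 0.33, adjusted p = 0.843). Both values came mostly from replicates 1 and 2 (0.53 and −0.32) rather than replicates 3 to 5 (0.01 and −0.11). The difference of −0.41 from shTet1 to shTet2 (−0.93 to 0.10, adjusted p = 0.473) was −0.85 in the former set and −0.12 in the latter, and with the block its interval was −0.70 to −0.12 and the adjusted p 0.0628.

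Sall4 and Zfp281 are the zinc finger partners. For Sall4, the shScr libraries had 12.74, 12.42, 11.61, 12.45 and 12.37, those of shTet1 12.34, 12.34, 11.70, 11.91 and 11.84, and those of shTet2 12.10, 12.37, 12.98, 12.15 and 12.28. The lowest value was that of shScr replicate 3 and the highest that of shTet2 replicate 3. Sall4 was −0.29 in shTet1 (95% CI −0.72 to 0.14) and 0.06 in shTet2 (−0.37 to 0.49) relative to shScr, and 0.35 in shTet2 relative to shTet1 (−0.08 to 0.78), none past the threshold (limma, BH-adjusted p = 0.639, 0.957 and 0.459). Within replicates 1 and 2 these values were −0.24, −0.34 and −0.11, and within replicates 3 to 5 −0.33, 0.32 and 0.65, so that both values of shTet2 changed sign between the sets.

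ZFP281 also binds the NuRD chromatin complex. For Zfp281, the shScr libraries had 12.93, 12.96, 12.79, 12.58 and 12.73, those of shTet1 12.34, 12.43, 12.77, 12.40 and 12.79, and those of shTet2 12.46, 12.52, 12.78, 12.31 and 12.62. The highest values were those of shScr replicates 1 and 2. Its values in both knockdowns were nearly alike, with −0.25 in shTet1 (95% CI −0.53 to 0.02) and −0.26 in shTet2 (−0.54 to 0.02) relative to shScr. They were lower in 4 of 5 and in 5 of 5 same-numbered pairs, with exact permutation p-values of 0.0873 and 0.0476 and limma BH-adjusted p-values of 0.474 (shTet1) and 0.469 (shTet2). The knockdowns differed from each other by −0.01 (−0.28 to 0.27). Most of either value came from replicates 1 and 2 (−0.56 and −0.46), beside −0.05 and −0.13 within replicates 3 to 5. Of 11 genes of the NuRD complex, 0 were called in each comparison, and Chd4, its ATPase, was 0.04 relative to shScr in both knockdowns. With the block, Mta2 was called between shTet2 and shTet1 at −0.40 (adjusted p = 0.0156).

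Utf1 had the lowest level of the members. The shScr libraries had 8.94, 8.26, 7.67, 6.97 and 8.71, the shTet1 libraries 8.78, 9.53, 8.45, 8.15 and 8.59, and the shTet2 libraries 8.48, 8.66, 8.51, 7.23 and 8.02. The spread within shScr alone covered most of the range of all 15 libraries, and replicate 4 was the lowest of each group. In shTet1 Utf1 was 0.59 relative to shScr (95% CI −0.13 to 1.32, limma, BH-adjusted p = 0.544), or 148% of the normalised reads, with 0.56 and 0.62 within the replicate sets. In shTet2 it was 0.07 (−0.65 to 0.80, adjusted p = 0.968), and relative to shTet1 −0.52 (−1.24 to 0.21, adjusted p = 0.542). With the replicate block, the interval was 0.14 to 1.04 for shTet1 relative to shScr (adjusted p = 0.116) and −0.97 to −0.07 between the knockdowns (adjusted p = 0.134), clear of 0 but past the threshold in neither case over all genes.

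For Tcf3, the E2A gene, the shScr libraries had 10.87, 10.52, 10.28, 10.21 and 10.57, those of shTet1 11.02, 10.99, 10.33, 10.34 and 10.41, and those of shTet2 11.03, 11.05, 10.86, 10.22 and 10.77. Within each group the highest values were in replicates 1 and 2, except that shScr replicate 5 was above replicate 2. It was 0.13 in shTet1 (95% CI −0.27 to 0.52) and 0.30 in shTet2 (−0.10 to 0.69) relative to shScr, the latter higher in 5 of 5 same-numbered pairs, with limma BH-adjusted p-values of 0.864 and 0.597. Relative to shTet1, shTet2 stood at 0.17 (−0.22 to 0.56). The shTet2 value was 0.34 within replicates 1 and 2 and 0.27 within replicates 3 to 5. E proteins bind DNA as dimers, and ID proteins hold them off DNA. Of 6 genes for other E proteins and for ID proteins, 0 were called against shScr in either knockdown. Between shTet2 and shTet1, 1 of the 6 was called (4.24% of all genes). That gene was Id2, which rose by 1.14 (SE 0.22, limma, BH-adjusted p = 0.00503), from 7.92 ± 0.35 in shTet1 to 9.06 ± 0.29 in shTet2 (SD, n = 5 each). With the block, Id2 and Id3 were called lower in shTet1 than in shScr, at −0.79 and −0.72 (adjusted p = 0.0120 and 0.0239), and Id1, Id2 and Id3 higher in shTet2 than in shTet1. The other E protein genes, Tcf12 and Tcf4, were 0.15 and 0.05 in shTet1 and 0.14 and 0.10 in shTet2 relative to shScr.

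Tcf7l1, the Wnt effector, was low and variable. Its shScr libraries had 7.12, 5.99, 6.28, 6.90 and 6.80, those of shTet1 6.95, 6.73, 6.26, 6.22 and 6.44, and those of shTet2 6.11, 6.31, 7.91, 6.59 and 6.39. Its values relative to shScr were −0.10 in shTet1 (95% CI −0.71 to 0.52) and 0.05 in shTet2 (−0.57 to 0.66), and both signs turned under some alternatives. Of the 7 genes of the TCF/LEF list, 0 were called in any comparison. Beside Tcf7l1, that list held Tcf7l2 (0.24 in shTet1 and 0.07 in shTet2 relative to shScr), Tcf7 (0.27 and 0.49), Lef1 (0.53 and 0.28) and Ctnnb1, the gene of β-catenin (0.03 and 0.09).

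**Figure D4:**
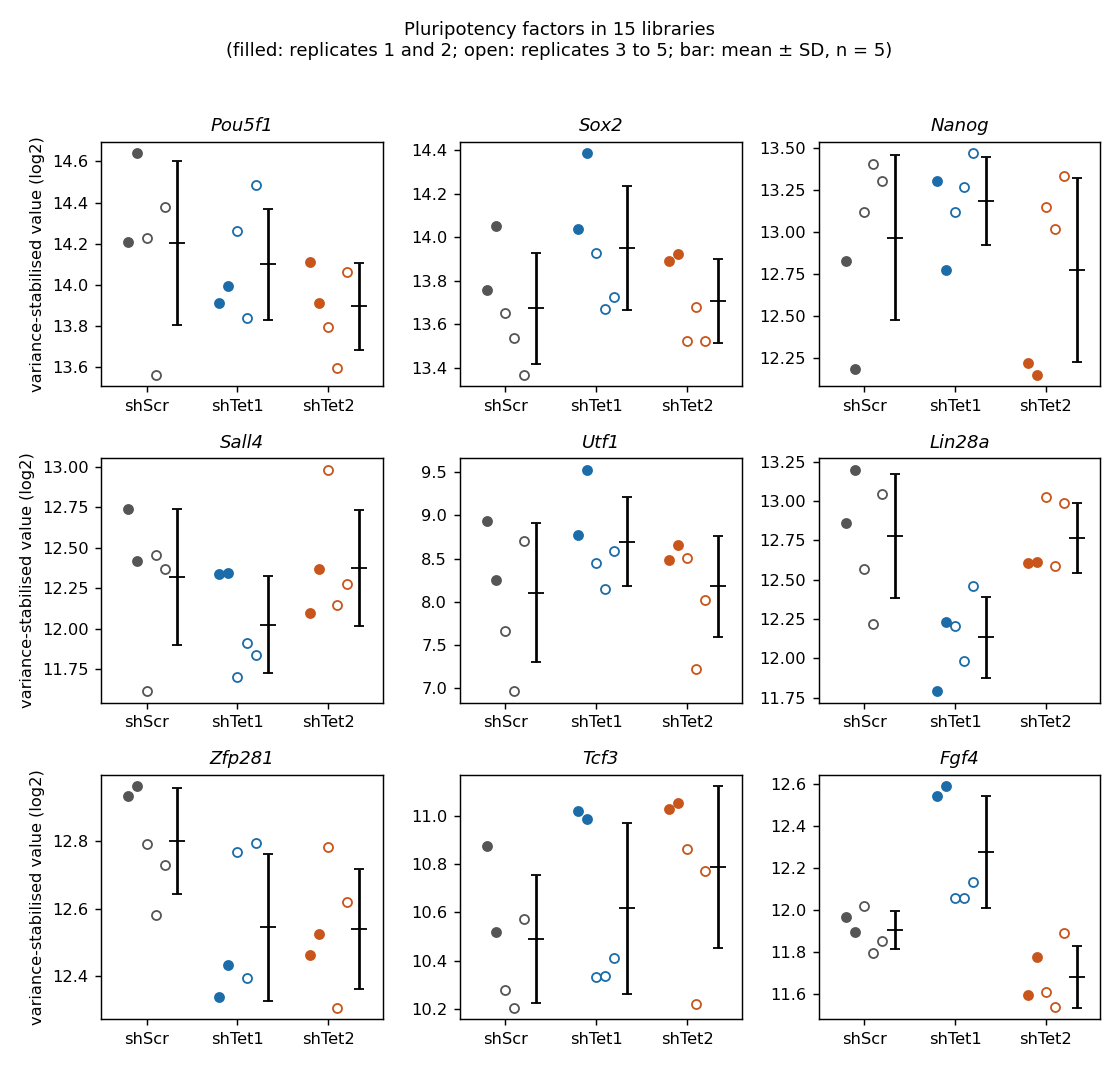
Variance-stabilised values (log2 scale) of the 9 members in every library, by group, with filled points for replicates 1 and 2, open points for replicates 3 to 5 and a bar for the mean ± SD (n = 5). The shTet1 points of Fgf4 are all above those of both other groups, and the shTet1 points of Lin28a all below those of shTet2; for the other 7 members the groups overlap in every comparison.

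Genes that work with the members or follow them were read from further lists. Of 23 network partners, 0 were called against shScr in either knockdown, with medians of −0.09 in shTet1 and −0.21 in shTet2, where 20 of 23 values were below 0. Esrrb, Klf2, Klf4 and Klf5, regulators that act beside the trio, were 0.18, −0.14, 0.23 and 0.08 in shTet1 and −0.10, −0.06, −0.37 and −0.06 in shTet2. From shTet1 to shTet2, 1 of 23 was called (4.24% of all genes), Otx2, which rose by 1.01 (SE 0.24, limma, BH-adjusted p = 0.0192). Otx2 is a homeobox factor that directs OCT4 to other sites when cells leave the naive state, and whether the cells had moved that way was not tested. With the block, Rif1 was called between shTet1 and shScr at −0.55 (adjusted p = 0.0232), and Prdm14 and Rest between shTet2 and shTet1 at −0.66 and −0.35 (adjusted p = 0.0113 and 0.0426).

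Of 12 targets of OCT4 and SOX2, 0 were called in each comparison, with medians of 0.08 and −0.02 for shTet1 and shTet2 relative to shScr and of −0.04 between the knockdowns. Spp1 was −0.10 and −0.16 relative to shScr in shTet1 and shTet2, Fbxo15 −0.26 and 0.57, Lefty1 0.61 and 0.59, and Lefty2 0.99 and 0.76. Lefty1 and Lefty2, antagonists of Nodal, had SDs of 1.41 and 1.05 within shTet1, wider than that of any member. With the block, both were called between shTet1 and shScr (adjusted p = 0.0120 and 0.00931), and Fbxo15 (0.84) and Dppa5a (−0.46) between shTet2 and shTet1 (adjusted p = 0.000179 and 0.0207). Among 15 tested paralogs of the members, 0 were called against shScr and 1 between shTet2 and shTet1 (4.24% of all genes). That gene was Sox4, which rose by 0.65 (SE 0.18, limma, BH-adjusted p = 0.0431). With the block, Pou2f1 and Fgf17 were also called in that comparison, at −0.61 and −0.44 (adjusted p = 0.0472 and 0.0403). Sall1, Sall2 and Sall3 were 0.22, 0.59 and −0.60 in shTet1 and −0.43, 0.61 and −0.98 in shTet2 relative to shScr, none past the threshold.

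Markers of other cell states were measured beside the members. Between shTet2 and shTet1, 4.24% of all genes were called, Fgf4 among them. There 6 of 7 tested markers of the 2-cell-like state were higher in shTet2 and called. Among these were 4 Zscan4 copies that share sequence and whose reads are uncertain. The list was chosen with earlier results of these data known, so its count is not independent evidence. Summed normalised reads of the 7 markers were 35892 to 53720 in the shTet2 libraries, 11203 to 27907 in shTet1 and 23104 to 32028 in shScr. In the same comparison 1 of 7 trophoblast markers was called, Eomes, which fell by 0.94 on the log2 scale (SE 0.22, limma, BH-adjusted p = 0.0185), and 1 of 5 tested primed epiblast markers, Otx2. None of the markers of primitive endoderm (8), mesoderm and primitive streak (6), neural cells (5) or fibroblasts (8) were called in any comparison, and against shScr 0 markers of any of these lists were called. Primitive endoderm markers were below shScr in 8 of 8 cases in both knockdowns, with medians of −0.26 in shTet1 and −0.66 in shTet2, and their summed reads were 2711 to 5251 in shScr, 2629 to 3609 in shTet1 and 2146 to 3682 in shTet2. Of these 8 markers, 5 averaged under 100 normalised reads. The highest was Lama1, at 11.69 in shScr beside 8.45 for Pdgfra, the next, so that the sums depend mostly on Lama1. Summed reads of mesoderm markers reached 87.8 at most in any library, and those of trophoblast markers ran from 335 to 2166. Primed epiblast sums were 4734 to 17562, neural sums 356 to 1467 and fibroblast sums 2603 to 10656. No marker of these lists was at 0 reads in every library. With the block, 6 of 7 markers of the 2-cell-like state were called lower in shTet1 than in shScr (4.8% of all genes called), with a median over the 7 of −1.24. Replicate numbers were not taken to pair for shTet2 and shScr. There the same fit called 840 of all tested genes. Of the 7 markers, 6 were higher in shTet2, 3 of them called, with a median of 0.96. The fit also called 3 of 8 primitive endoderm markers lower there: Pdgfra (−0.95, adjusted p = 0.00311), Dab2 (−0.95, 0.0308) and Sox7 (−0.69, 0.0475). Otx2 and Thy1 were called higher, at 0.72 and 0.71 (adjusted p = 0.00168 and 0.0180). The block also called Eomes between shTet1 and shScr at 0.80 (adjusted p = 0.0176), and between the knockdowns Gata3 (0.65, adjusted p = 0.0417), Pdgfra (−0.59, 0.0178), Dab2 (−0.79, 0.0353), Acta2 (1.35, 0.00926) and Vim (0.46, 0.00585). The part of these states in the values of Fgf4 and Lin28a was not tested.

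For each member, the genes with the most similar course over the 15 libraries were looked up among 8103 other tested genes of at least moderate level. The libraries share groups, the split by replicate number and depth, so that these correlations are a description. Pou5f1 was closest to Nudt5 (Pearson's r 0.96, Spearman's rho 0.93) and Uba2 (0.96 and 0.94), Sox2 to Rp2h (0.92 and 0.91) and Bcar3 (0.90 and 0.93), and Nanog to Terf1 (0.93 and 0.81) and Epb4.1l4a (0.92 and 0.84). Sall4 was closest to Wdr62 (0.95 and 0.93) and Larp1 (0.91 and 0.80), Zfp281 to Nvl (0.92 and 0.90) and Ube3a (0.90 and 0.89), Tcf3 to Limk1 (0.95 and 0.95) and Ptov1 (0.94 and 0.90), and Utf1 to Slc25a3 (0.93 and 0.84) and Unc5b (0.92 and 0.90). Lin28a was closest to Pramef8 (0.90 and 0.87) and Vipar (0.90 and 0.87), and Fgf4 to Spint1 (0.93 and 0.91) and Stk3 (0.91 and 0.86). No member was among the 2 nearest genes of another. Without the 2 libraries farthest from the member's median, r lay between 0.80 (Fgf4 and Stk3) and 0.96 (Zfp281 and Nvl). Taken as deviations from the group means, the values of Fgf4 and its neighbours fell furthest, to r of 0.78 and 0.69. Those of Lin28a and its neighbours fell to 0.78 and 0.76. For both members, part of the likeness thus lay in the differences between groups.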

How the data were processed

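Total RNA of 15 libraries of E14 cells (5 per group) was depleted of rRNA and sequenced. According to the submitters' processing notes and the methods of the study, the authors trimmed reads with Trim Galore 0.3.3, aligned them to mm9 with TopHat2 2.0.9, keeping 1 position of reads with several, counted them per gene in SeqMonk and transformed the counts with DESeq2. The deposited values are variance-stabilised values on a log2 scale (26061 genes). The transformation could be inverted: 100% of values up to 300 reads came out whole (tolerance 0.05), with 15258291 to 35432425 reads per library. RNA was extracted by either of a pair of methods, and which library had which is not given in the labels, so that it cannot be told apart from the replicate split.

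From the deposited log2 values, differences were computed in R 4.3.3 by limma 3.58.1 (lmFit and eBayes, variance trend on), 1 fit over all libraries with group as the only term, for the 19490 genes above the minimum in at least 5 of 15 libraries, two-sided, with Benjamini-Hochberg adjustment over all of them and a threshold of 0.05. An exact permutation test of 5 against 5 libraries (two-sided, smallest p 0.00794) was added for single genes. The script was tested on simulated data. Levels per kb used reads divided by the library's scaling factor and by exon length (GENCODE vM1). Members and lists were chosen with earlier results of these data known. Named genes were all members, Tet1, Tet2 and Tcf7l1, list genes with an adjusted p under 0.05 (at most 6 per list and comparison), up to 4 further genes per list in list order, and the 2 genes most like each member (Pearson's r, mean at least 4 above the minimum, predicted genes passed over, of which 0 occurred). Genes called only with the replicate block in comparisons with shTet1 were also named, after their values were seen. Between shTet2 and shScr, where replicate numbers were not taken to pair, only Ccnd1 and markers of cell states were named in this way. Lists were network partners, targets of OCT4 and SOX2, FGF4 receptors and response, LIN28 and let-7, TCF/LEF factors, E proteins and ID factors, the NuRD complex, paralogs of the members, and markers of primitive endoderm, trophoblast, mesoderm and primitive streak, neural cells, primed epiblast, fibroblasts and the 2-cell-like state.

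The pairing of replicate numbers was checked by correlating, over genes, how far libraries of 1 number stood from the means of their groups. For shTet1 and shScr r was 0.374 to 0.657 and for the knockdowns 0.330 to 0.731, where the numbers were taken to pair. For shTet2 and shScr it was 0.00789 to 0.769, and they were not. Libraries of unlike number were not correlated, so the check cannot tell pairing by number from the split of replicates 1 and 2 against 3 to 5. The fit with the block used all 15 libraries, with replicate terms shared by the 3 groups. Alternatives covered the filter, the variance trend, the libraries fitted, centring on medians, quantile normalisation, weights for libraries, the replicate number as a block, a term for replicates 1 and 2, limma voom on recovered reads, leaving out each library and, added after seeing the data, leaving out the 4 libraries with most receptor reads. Repeat elements and small RNA were not analysed here.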

Additional observations from a re-analysis of the deposited data

Results flagged for a closer look

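Fgf4 was flagged because its effect differed between the knockdowns by a test of that difference itself. The effect of shTet2 minus the effect of shTet1 was −0.59 (SE 0.13, limma, Benjamini-Hochberg, adjusted p = 0.0126), with all 5 shTet1 libraries above all 5 shTet2 libraries. Taken against shScr, the value was 0.37 in shTet1 and −0.22 in shTet2, on opposite sides of 0. Neither passed the threshold (limma, BH-adjusted p = 0.244 and 0.556). Since shScr cancels, the flagged difference is the comparison of shTet2 with shTet1 given above and no further evidence. Each group of each member was also searched for a library far from the rest (gap over range above 0.71), and 0 of 27 groups held one.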

How the results depend on the processing

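The count of members called between shTet1 and shScr was 0 under every alternative except the replicate block, where it was 1. Between shTet2 and shScr it was 0 under all alternatives, the block included. Comparing the knockdowns gave 1, and 2 when using genes above the minimum in all libraries, only the 2 groups compared, quantile normalisation, array weights, the replicate block, the batch term or voom on recovered reads, and without shTet1 replicate 5. The added gene was Lin28a each time, with adjusted p from 0.00598 (block) to 0.0496 (voom). The cause was not tested. Fgf4 stayed called throughout that comparison (adjusted p at most 0.0458 when single libraries were left out). Of 630 alternative tests of single genes, 38 turned in sign, for 9 of 30 differences, all with a size of at most 0.14 and an adjusted p of at least 0.720. Of 60 values within a replicate set, which have no test, 10 had the other sign, the largest difference among them being Sall4 between the knockdowns (0.35, and −0.11 within replicates 1 and 2).

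Median centring shifted all shTet2 values relative to shScr by −0.11, so that Sox2 came to −0.073, Sall4 to −0.051, Utf1 to −0.035 and Tcf7l1 to −0.0624. Relative to that shift Pou5f1 was −0.42 and Tcf3 0.19. Quantile normalisation gave 0.0974 for Lin28a and −0.0851 for Tcf7l1 (shTet2 against shScr) and 0.0365 for Zfp281 (between the knockdowns), and Tcf7l1 was −0.11 with array weights and −0.0901 with voom. Without the 4 libraries of high receptor share, an alternative added after seeing the data, Tcf7l1 was 0.16 (shTet1 against shScr) and −0.025 (between the knockdowns), and Zfp281 0.0759 (between the knockdowns). Levels per kb by the longest transcript were 14374 for Pou5f1 and 481 for Tcf3, since their exons over all transcripts are longer.

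Leaving out each library in turn gave 0 to 0, 0 to 0 and 1 to 2 members called. Against shScr, Pou5f1 in shTet1 ran from −0.26 to 0.00573 (highest without shScr replicate 2) and Tcf7l1 from −0.25 to 0.0262 (highest without shScr replicate 1). In shTet2, Sox2 ran from −0.0422 to 0.13, Sall4 from −0.12 to 0.16, Utf1 from −0.21 to 0.31, Lin28a from −0.15 to 0.092 and Tcf7l1 from −0.27 to 0.18. Between the knockdowns Zfp281 ran from −0.067 to 0.0558, Tcf7l1 from −0.17 to 0.28, Fgf4 from −0.65 to −0.51 and Lin28a from 0.54 to 0.71 (highest without shTet1 replicate 5). Tet1 in shTet1 ran from −1.91 to −1.77 and Tet2 in shTet2 from −1.95 to −1.83.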
